A study of Parhyale hawaiensis with 42 samples.

Results

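The 200 genes described here are the most abundant mRNAs of *Parhyale hawaiensis* that were much higher at the last embryonic time-point, S24–30, than before. They were chosen from measured levels. Counts were summed over the transcripts of each gene of the Trinity assembly and divided by the library total to give counts per 1000000 (CPM), and the 2 libraries of each time-point were averaged. Of 31153 genes, 1775 had an S24–30 mean at least 10 times the mean of each of the 6 earlier time-points, and the 200 with the highest S24–30 mean were taken. These are called late genes below. The values that compare S24–30 with earlier time-points were therefore fixed by the choice and are given as a description, without a test.

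The libraries came from pooled whole embryos of a wild-type laboratory strain of this amphipod, collected from the brood pouch of females reared in artificial sea water, staged by eye and grouped into 7 time-points from S1–4 and S5–6 through S7–11, S14 and S17 to S21–23 and S24–30. No mutation or treatment of the embryos is stated, and stage is the only difference between them that the labels name. Whether culture, brood or library batch also differed between time-points is not stated. Each time-point had 2 libraries of poly-A selected mRNA and 4 of small RNA. In the sample labels S5–6 appears as stage 6 and S7–11 as stages 8 to 11, and the S1–4 mRNA libraries bear a small RNA tag although their values are transcript counts. The 14 mRNA libraries held 41354642 to 64892281 counts each. Whether the libraries of 1 time-point were from different cultures or broods is not stated, so the p-values cover the spread among these libraries alone, and that spread may be technical. S24–30 joins several stages in 1 sample, so the order in which genes rose within it cannot be told apart.

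*Parhyale hawaiensis* develops directly, without a free larva, and the hatchling resembles a small adult. The earliest stages run on mRNAs that the mother loaded into the egg, and later stages on mRNAs transcribed from the embryo's own genome. The last part of embryogenesis is when organs differentiate, muscle becomes active, the eyes gain pigment and the cuticle is laid down. The files do not pair the Trinity identifiers with gene names, so no function is given to any late gene, and lists of cuticle, muscle, digestive, oxygen carrier, photoreceptor and neuronal genes could not be matched to them. The tissue could not be checked against marker genes for the same reason. Their sequences were not analysed here.

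At S24–30 the late genes took 10.8% of all counts in replicate 1 and 10.7% in replicate 2, a mean of 10.8% ± 0.0432 (SD, n = 2). At S21–23 they took 0.274% and 0.270%. At S17 the share was 0.0751% and 0.0765%, and at S14 it was 0.0788% and 0.0806%. Each time-point's replicates lay close together, and the S24–30 share was 39.5 times that of S21–23 and 302 times that of S5–6, where it was lowest at 0.0347% and 0.0365%. The first 3 time-points all lay under 0.05%, with S1–4 at 0.0431% and 0.0449% and S7–11 at 0.0407% and 0.0410%. In these whole-embryo samples, more cells of a type and more of an mRNA per cell cannot be told apart. All 1775 genes past the ratio took 12.7% of the S24–30 counts, so that the 200 late genes held most of what this larger group contributed.

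**Figure D1:**
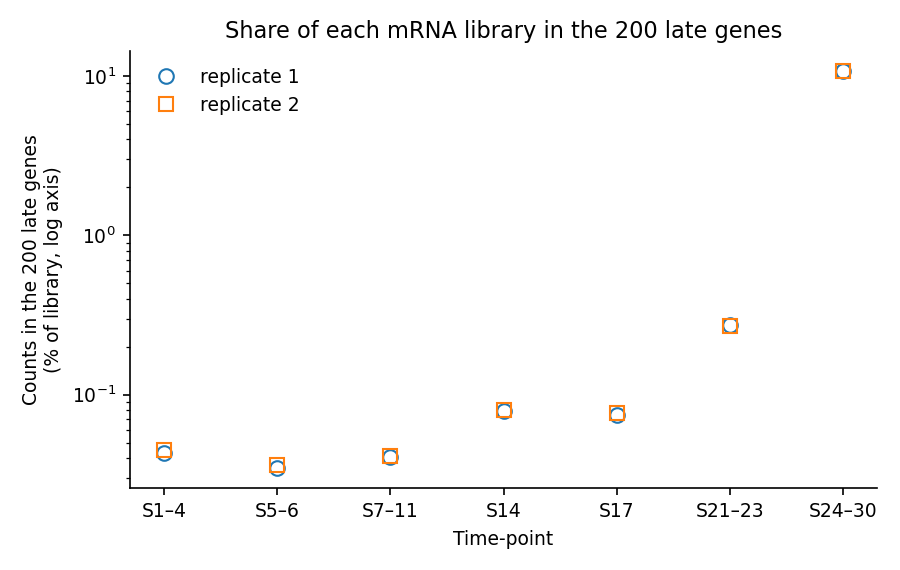
Share of each mRNA library's counts (percent, log axis) in the 200 late genes at the 7 time-points. Each library is 1 point, circles for replicate 1 and squares for replicate 2. Both S24–30 libraries sit near 10.8% and every earlier library at or below 0.274%.

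The late genes ranked high in the S24–30 embryo. Their mean level there ranged from 95.4 to 7349 CPM, with a median of 217 CPM and quartiles of 129.9 and 456 CPM. Of the 10 most abundant genes of the time-point, 4 were late genes, and of the 100 most abundant, 25 were. In both S24–30 libraries all 200 were at 1 CPM or more. In the earlier libraries that number was 46 and 48 at S5–6, 87 and 90 at S14, 91 and 93 at S17, and 127 and 129 at S21–23. The median late gene stood at 0.172 and 0.253 CPM in the S1–4 libraries, at 2.43 and 2.35 CPM at S21–23 and at 218 and 222 CPM at S24–30.

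The counts were concentrated in few genes. The 10 most abundant late genes held 36.2% and 35.7% of all late-gene counts in the S24–30 libraries. They held 46.9% and 45.5% at S21–23, but 5.08% and 5.10% at S7–11, when other late genes supplied most of the small total.

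The size of the S24–30 step varied widely. The ratio of the S24–30 mean to the highest earlier mean had a median of 71.8. It lay between 10 and 20 for 49 genes, between 20 and 100 for 60, between 100 and 1000 for 52, and at 1000 or more for 39. The S21–23 level was below 0.1% of the S24–30 level in 49 genes and above 5% in 34, with a median of 0.871% and a maximum of 9.32%.

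The rule's limits fell within a continuous range of values. The late genes with the lowest ratios were TRINITY_GG_40058_c0_g1 at 10.4, with 546 CPM at S24–30 and 52.6 CPM at S14, and TRINITY_GG_136995_c0_g1 at 10.7. Just outside were TRINITY_GG_119316_c0_g1 at 9.82 and TRINITY_GG_123849_c1_g1 at 9.69. By level, the last gene inside was TRINITY_GG_56933_c0_g1 at 95.4 CPM and the first outside was TRINITY_GG_21914_c0_g1 at 93.9 CPM. In all, 2129 genes were at least as abundant at S24–30 as the last late gene, and 1929 of them missed the ratio.

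**Figure D2:**
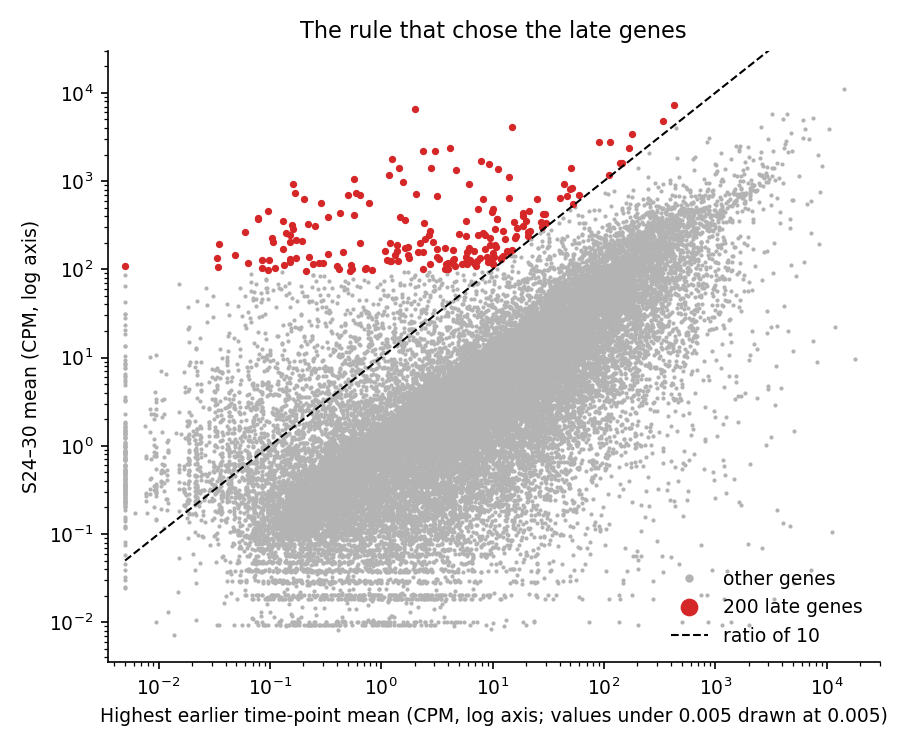
S24–30 mean level of each gene against its highest mean at an earlier time-point (both CPM, log axes), with the 200 late genes in red, other genes in grey and the ratio of 10 as a dashed line. The late genes fill the area above the line from 95.4 to 7349 CPM, and their highest earlier level runs from 0 to 428 CPM.

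The 10 most abundant late genes reached S24–30 by different routes. TRINITY_GG_77553_c0_g1, the second most abundant gene of the time-point, had 7570.2 and 7128 CPM at S24–30 and 446 and 411 CPM at S21–23. It had 2.32 and 2.76 CPM at S17, 0.670 and 0.648 CPM at S7–11, and 4.60 and 6.43 CPM at S1–4. Its S1–4 libraries lay above both S7–11 libraries, and its steepest rise before S24–30 came between S17 and S21–23, by 7.22 on the log2 scale (SE 0.19, edgeR adjusted p = 1.34e-12). TRINITY_GG_77551_c0_g1, whose identifier differs by 2 in its read-cluster number, had 4899 and 4770.0 CPM at S24–30 and 339.7 and 333 CPM at S21–23. Unlike its neighbour it was already at 68.1 and 72.0 CPM at S14 and 83.1 and 82.9 CPM at S17, from 1.08 and 0.988 CPM at S7–11. Its main early rise was thus from S7–11 to S17 (log2 fold change 6.45, SE 0.13, edgeR adjusted p = 7.46e-15), with a smaller one to S21–23 (1.84, SE 0.08, adjusted p = 4.89e-10).

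TRINITY_GG_13648_c0_g1 stayed low until S24–30. It had 0.172 and 0.463 CPM at S1–4 and 0.339 and 0.283 CPM at S5–6. In all 4 libraries of S7–11 and S14 it had 0 counts, and at S17 it had 0.302 and 0.135 CPM. At S21–23 it had 2.57 and 1.45 CPM, a rise from S17 (log2 fold change 3.07, SE 0.38, edgeR adjusted p = 4.73e-05). At S24–30 it had 6428 and 6582 CPM. A similar late course was seen in TRINITY_GG_68625_c0_g1, with 0.416 and 0.337 CPM at S17, 16.3 and 13.3 CPM at S21–23 and 4296 and 3945 CPM at S24–30. TRINITY_GG_61313_c0_g1 and TRINITY_GG_91423_c0_g1 were also low at S21–23. The former had 4.44 and 3.91 CPM there and 2460.4 and 2333 CPM at S24–30, and the latter 2.02 and 2.68 CPM and then 2185 and 2208 CPM. For both, the step from S17 to S21–23 did not pass the thresholds (log2 fold changes of 0.59 and 1.19).

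TRINITY_GG_4363_c0_g1 and TRINITY_GG_95334_c0_g1 instead climbed at each tested step. TRINITY_GG_4363_c0_g1 had 1.39 and 0.904 CPM at S7–11, 12.5 in both libraries at S14, 25.1 and 27.4 at S17, 112 and 114 at S21–23, and 2767 and 2721 at S24–30. For TRINITY_GG_95334_c0_g1 the values were 0.452 and 0.522 CPM at S1–4, 6.66 and 6.81 at S7–11, 13.4 and 13.6 at S14, 23.6 and 23.3 at S17, 169 and 164 at S21–23, and 2356 and 2433 at S24–30. In both genes, from S7–11 on, both libraries of each time-point lay above both libraries of the time-point before.

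The remaining 2 of the 10 had an early peak. TRINITY_GG_107615_c0_g1 had 62.4 and 63.5 CPM at S1–4 and 87.5 and 91.5 CPM at S5–6. It then stayed between 5.61 and 9.06 CPM in all 8 libraries from S7–11 to S21–23 and reached 2639.9 and 2844 CPM at S24–30. TRINITY_GG_26753_c0_g1 had 18.7 and 21.6 CPM at S1–4, 1.98 and 1.72 CPM at S17, 186 and 174 CPM at S21–23 and 3432 and 3354 CPM at S24–30. Both fell from S1–4 to S7–11 (log2 fold changes of -2.58, SE 0.06, and -2.83, SE 0.10, edgeR adjusted p = 5.63e-15 and 1.11e-12).

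**Figure D3:**
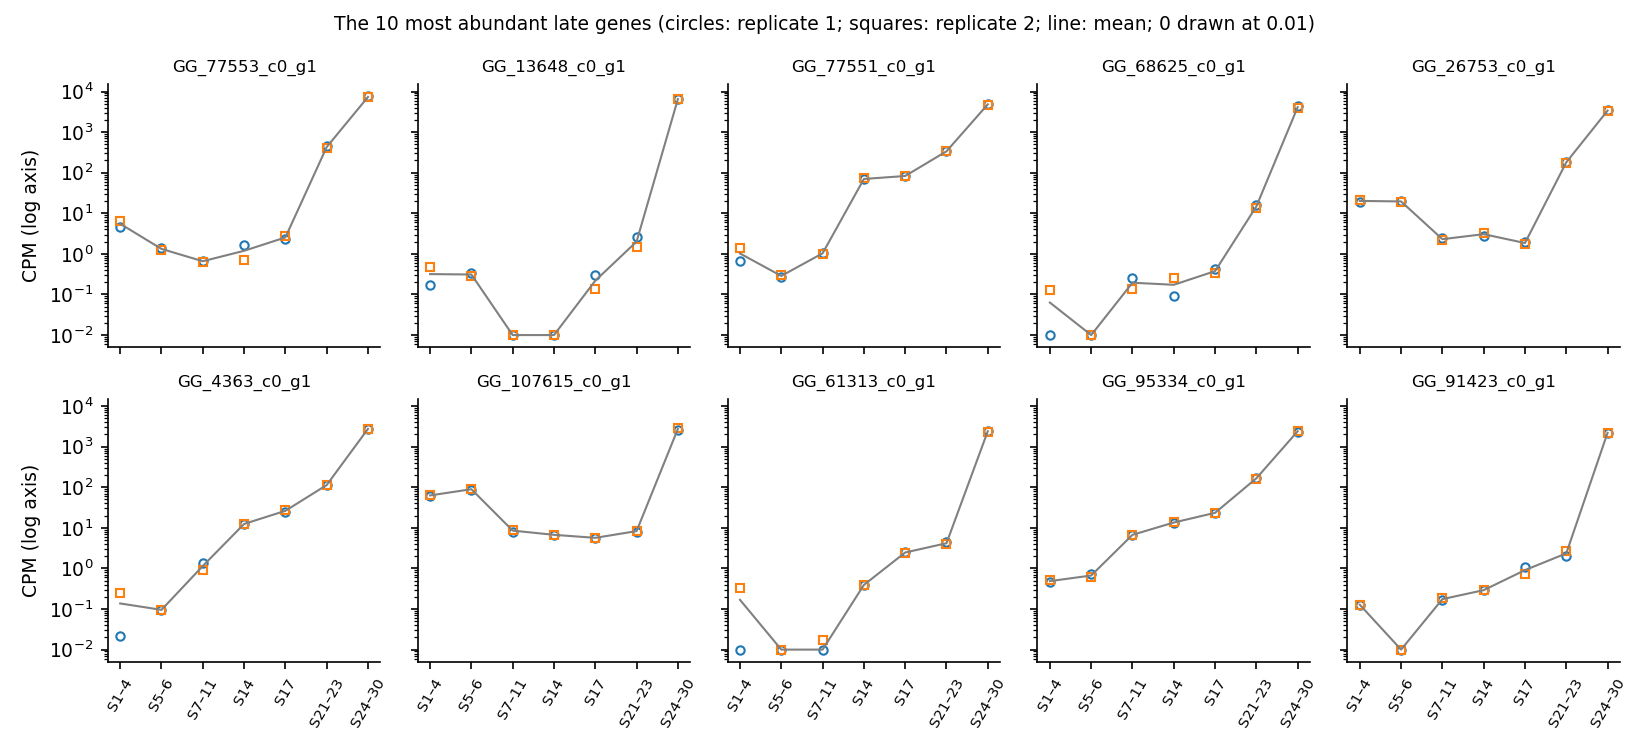
Levels (CPM, log axis, 0 drawn at 0.01) of the 10 most abundant late genes in each mRNA library by time-point, with circles for replicate 1, squares for replicate 2 and a line through the means. TRINITY_GG_107615_c0_g1 stood at 87.5 and 91.5 CPM at S5–6 before its S24–30 level, while TRINITY_GG_13648_c0_g1 stayed below 3 CPM until S21–23.

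Many late genes were hardly seen before S24–30. Of the 200, 60 stayed below 1 CPM at every earlier time-point, while 55 reached 10 CPM or more at one of them. The number with fewer than 3 counts over both libraries of a time-point was 57 and 66 at the first 2 time-points, 41 at S7–11, 38 at S14, 34 at S17 and 10 at S21–23. A count of 0 allows up to 3 counts at 95% confidence, and such limits cover counting error only, since PCR reads without molecular identifiers are not independent molecules.

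TRINITY_GG_14570_c0_g1 was at 0 in all 12 earlier libraries and at 119.8 and 100.4 CPM at S24–30. Against the limit of 3 counts over both libraries of a time-point, its S24–30 level was at least 3075-fold higher. The highest ratio that rested on counts was that of TRINITY_GG_12606_c0_g1, at 5779, with 933 and 923 CPM at S24–30 and 0.187 and 0.134 CPM at S21–23. The S21–23 value came from 16 counts, and the exact 95% Poisson interval of the ratio of pooled levels was 3508 to 9968. TRINITY_GG_25789_c0_g1 had 193 and 189.7 CPM at S24–30 and a ratio of 5449 over S7–11, where it had 4 counts (interval 2131 to 20026). TRINITY_GG_20135_c0_g1 had 382 and 373 CPM (ratio 4806, interval 2352 to 10733) and TRINITY_GG_24039_c0_g1 373 and 368 CPM (ratio 4718, interval 2308 to 10534), each over 8 counts at S21–23. The order of these 4 ratios was not resolved, since each interval held the other ratios.

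The earlier time-point with the highest level was S21–23 for 128 late genes, an intermediate time-point (S7–11, S14 or S17) for 38 and one of the first 2 time-points for 33. In these groups, 95 of 128, 22 of 38 and 23 of 33 genes reached 1 CPM at that earlier time-point. The median ratio of S24–30 over it was 66.2, 109.8 and 42.3. The highest intermediate level was that of TRINITY_GG_69321_c0_g1. It had 141 and 140.2 CPM at S14, 103.1 and 98.8 CPM at S17, 57.0 and 54.0 CPM at S21–23 and 1671 and 1576 CPM at S24–30, so that its level declined over 3 time-points before its S24–30 value.

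The ratio of 10 capped every earlier mean but did not set the direction between 2 earlier time-points, so edgeR was run on those steps (quasi-likelihood, 29090 genes). A gene was called with a log2 fold change of 1.5 or more in size and an adjusted p of 0.001 or less. All 200 late genes entered the tests, because their S24–30 libraries alone were enough to pass the filter on low counts, whatever their earlier levels. Those with almost no earlier counts, such as the 57 with fewer than 3 counts at S1–4, could hardly be called fallen. The shares of calls are therefore a description beside those of all tested genes, and the part of the choice of genes in any difference was not tested. Between S17 and S21–23, 73 late genes rose, 36.5%, against 2.43% of all tested genes. Over the same step 2 fell, 1.0%, against 0.945% of all tested genes. The median log2 fold change was 1.62 for the late genes and 0.00 for all tested genes, and 161 late genes had a value above 0 and 34 one below.

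From S7–11 to S17, 43 late genes rose (21.5%, against 5.03% of all tested genes) and 9 fell (4.5%, against 9.41%), with a median log2 fold change of 0.61 against -0.29 for all tested genes. With the size factors of DESeq2 these medians were 0.97 and 0.00. From S1–4 to S7–11, 53 rose (26.5%, against 23.8%) and 25 fell (12.5%, against 22.1%). The share that rose over this first interval was near that of all tested genes. Its median log2 fold change was 0.51 with both libraries, but 0.08 without S7–11 replicate 2 and 0.74 without S1–4 replicate 2, and 0.20 when only library totals were used for scaling, where the median of all genes was -0.17.

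**Figure D4:**
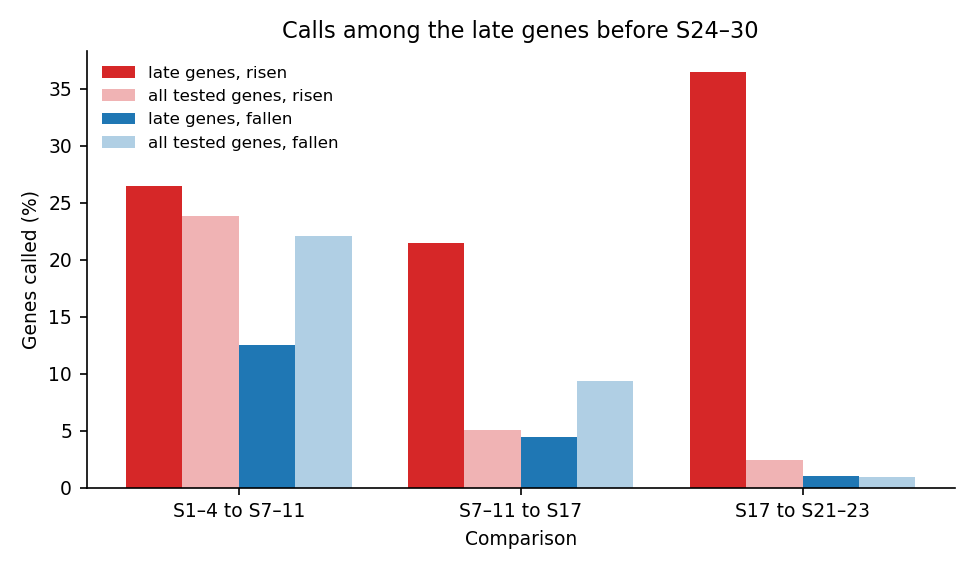
Percent of the 200 late genes and of all 29090 tested genes called risen or fallen by edgeR over 3 steps before S24–30. From S17 to S21–23, 36.5% of the late genes and 2.43% of all tested genes were called risen, and from S1–4 to S7–11, 26.5% and 23.8%. Few earlier counts left many late genes with little room for a call of a fall.

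The 73 genes that rose from S17 to S21–23 had a median level of 0.338 CPM at S17, 5.89 CPM at S21–23 and 264 CPM at S24–30. Their log2 fold changes ran from 1.52 to 13.09, with a median of 3.07. In the 125 late genes without a call at this step, the median went from 0.853 to 1.20 CPM, and 58 of them were still below 1 CPM at S21–23. The 4 largest fitted changes were all against S17 libraries with 2 counts or fewer, for which fitted values depend on the software's prior count and folds over pooled counts are given instead. TRINITY_GG_72911_c0_g1 was at 0 in both S17 libraries, at 19.1 and 22.2 CPM at S21–23 and at 240.1 and 242 CPM at S24–30, and its S21–23 level was at least 769.5-fold higher than that of S17 (edgeR adjusted p = 1.45e-10).

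The next 3 had the same form at lower levels. TRINITY_GG_41494_c0_g1 had 0 counts at S17, 6.69 and 5.89 CPM at S21–23 and 128 and 125 CPM at S24–30 (at least 237-fold higher at S21–23, adjusted p = 1.88e-08). TRINITY_GG_99734_c0_g1 also had 0 counts at S17 and then 4.78 and 4.42 CPM (at least 173-fold higher, adjusted p = 2.05e-07). TRINITY_GG_7175_c0_g1 had 2 counts at S17 and 5.32 and 5.96 CPM at S21–23, a 315-fold ratio with a counting interval of 87.3 to 2603 (adjusted p = 1.12e-08). In each, both S21–23 libraries lay above both S17 libraries.

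The 2 late genes that fell from S17 to S21–23 (1.0%, against 0.945% of all tested genes) were named after their values were seen. TRINITY_GG_140576_c0_g1 had 18.6 and 18.9 CPM at S14, 9.81 and 12.1 at S17, 2.85 and 2.66 at S21–23 and 428 and 442 at S24–30 (log2 fold change -2.17 over the tested step, SE 0.14, edgeR adjusted p = 1.92e-08). TRINITY_GG_12735_c0_g1 had 2.78 and 2.69 CPM at S17, 0.412 and 0.402 CPM at S21–23 and 282 and 266 CPM at S24–30 (-2.91, SE 0.24, adjusted p = 2.77e-07). Their S24–30 rise thus started from a level below that of the time-point before.

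Among the changes from S7–11 to S17, the largest fitted ones were in TRINITY_GG_61313_c0_g1, TRINITY_GG_105123_c0_g1 and TRINITY_GG_77547_c0_g1. TRINITY_GG_61313_c0_g1, one of the 10 most abundant late genes, went from 1 count over both S7–11 libraries to 2.55 and 2.39 CPM (281-fold, counting interval 50.4 to 11091, edgeR adjusted p = 1.04e-07). TRINITY_GG_105123_c0_g1 went from 0 counts to 0.491 and 0.303 CPM, at least 14.9-fold, and was back at 0.0375 and 0.179 CPM at S21–23 (adjusted p = 0.000391 for the rise). TRINITY_GG_77547_c0_g1 went from 0.0804 and 0.0171 CPM to 4.14 and 4.07 CPM (log2 fold change 6.60, SE 0.29, adjusted p = 1.4e-10) and on to 21.9 and 19.4 CPM at S21–23. All 3 remained below 5 CPM at S17.

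From S1–4 to S7–11 the largest fitted change was a fall. TRINITY_GG_33495_c0_g1 had 6.93 and 5.44 CPM at S1–4 and 0 counts in the 4 libraries of S7–11 and S14, at least 234-fold lower at S7–11 than at S1–4 (edgeR adjusted p = 2.06e-10). It came back to 0.618 and 0.781 CPM at S21–23 and 934 and 898 CPM at S24–30. TRINITY_GG_89693_c1_g1 had 0 counts at S1–4 and 0.887 and 1.11 CPM at S7–11, at least 31.3-fold higher (adjusted p = 2.11e-07). TRINITY_GG_120192_c0_g1 had 1 count at S1–4 and 4.20 and 4.06 CPM at S7–11, a 388-fold ratio with a counting interval of 69.6 to 15315 (adjusted p = 3.7e-12).

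The 3 tested steps gave the late genes several histories. A call in at least 1 step was made for 138 late genes (69.0%, against 52.1% of all tested genes) and in none for 62, of which 45 were below 1 CPM at all earlier time-points. A rise in at least 1 step was called for 126 (63.0%, against 28.7%), and for 35 the only call was the rise from S17 to S21–23 (17.5%, against 0.777%). In 5 genes all 3 steps were rises (2.5%, against 0.131%), TRINITY_GG_4363_c0_g1 and TRINITY_GG_95334_c0_g1 among them. In 14 genes a fall from S1–4 to S7–11 was followed by a later rise (7.0%, against 1.90%), as in TRINITY_GG_77553_c0_g1 and TRINITY_GG_26753_c0_g1. These steps share libraries of S7–11 or S17 and are therefore not independent of each other.

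The 2 S24–30 libraries gave nearly the same levels. The log2 ratio of replicate 1 over replicate 2 ran from -0.24 to 0.26, with a median of -0.02, and 87 late genes were higher in replicate 1 and 113 in replicate 2. The median size of this ratio was 0.0537, and it was 0.04996 in the 1929 other genes at least as abundant. The widest gaps were in TRINITY_GG_14570_c0_g1, with 119.8 and 100.4 CPM, TRINITY_GG_19692_c0_g1, with 106 and 125 CPM, and TRINITY_GG_99734_c0_g1, with 117 and 101 CPM. Even these were small beside the ratio of 10 that the rule asked for.

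Late genes differed from the other genes in transcript length, which the rule did not use directly. The median length of the longest transcript was 3025.5 bases, from 234 to 18466, against 921 bases in the other 1575 genes past the ratio, 869 in all genes and 4839 in the 1929 non-late genes at least as abundant at S24–30. Counts scale with transcript length and CPM, by which the genes were chosen, does not correct for it, so the part of the choice in these differences was not tested. The longest late genes were TRINITY_GG_40598_c0_g1, of 18466 bases, with 445 and 467 CPM at S24–30, and TRINITY_GG_26338_c0_g1, of 16933 bases, with 719 and 735 CPM.

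Per length, the order of the late genes changed. In transcripts per 1000000 (TPM), which divide by length, they ranged from 10.8 to 13733, with a median of 122 TPM, and only 3 of the 10 highest by CPM were among the 10 highest by TPM. The highest was TRINITY_GG_7306_c0_g1, a transcript of 234 bases with 213 and 204 CPM, and its TPM is uncertain because length corrections are least exact for transcripts near the size of a sequenced fragment. TRINITY_GG_77553_c0_g1 had 3527 TPM and TRINITY_GG_13648_c0_g1, with a transcript of 6907 bases, 949 TPM. Thus genes that were close in CPM were apart per length.

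Several isoforms were assembled for 119 late genes, 59.5%, against 54.1% of the 1929 other genes at least as abundant at S24–30 and 33.2% of all genes. Among these 119 the main isoform held a median of 79.6% of the gene's S24–30 counts, at least 90% in 41 genes and less than 50% in 15. TRINITY_GG_135630_c0_g1 had 15 isoforms, 13 of them at 1 CPM or more, TRINITY_GG_85211_c0_g1 had 9, of which 8 reached that level, and TRINITY_GG_24039_c0_g1 had 10, of which 7 did. In TRINITY_GG_85211_c0_g1 the main isoform held 18.8% of the counts, the lowest share. Isoforms share most of their sequence and salmon divides the common reads among them, so isoform levels are less certain than gene sums.

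Some late genes used another main isoform at S21–23 than at S24–30. The comparison was limited to genes with several isoforms and at least 1 CPM at both time-points in which 1 isoform held over 50% of the counts in both libraries of each time-point, a definition set after the data had been seen. Of 55 such late genes 10 changed their main isoform, 18.2%, against 200 of 5448 other genes, 3.67%. The choice of late genes required a rise of at least 10-fold over this same step, which was not required of the other genes. Late genes also had lower S21–23 levels in this comparison, with a median of 7.20 CPM against 13.8 CPM. The part of either in the difference was not tested. The best counted case was TRINITY_GG_40058_c0_g1, where isoform i1 of 2144 bases held 98.6% and 99.7% at S21–23, while isoform i6 of 2999 bases held 82.9% and 81.1% at S24–30. In TRINITY_GG_13648_c0_g1 isoform i1 held all 202 counts at S21–23, and isoform i2, of 6907 bases against 6874, held 71.8% and 73.1% at S24–30. In 3 of the 10 genes, TRINITY_GG_107654_c0_g1, TRINITY_GG_68582_c0_g1 and TRINITY_GG_87014_c0_g1, the shares of both isoforms were close to equal at both time-points.

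**Figure D5:**
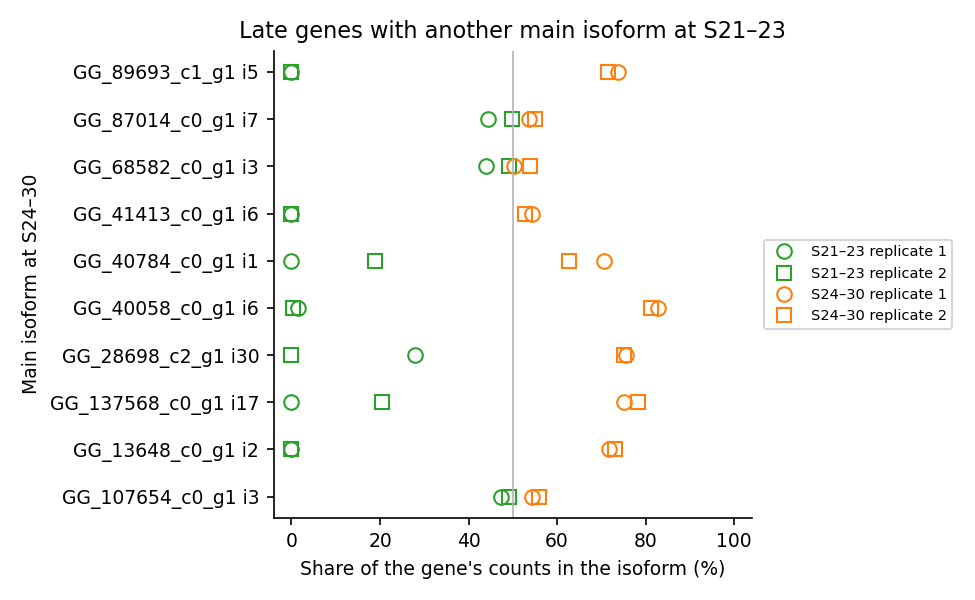
Share of the gene's counts (percent) held by the S24–30 main isoform in each library of S21–23 (green) and S24–30 (orange), for the 10 late genes whose main isoform differed, with a grey line at 50%. In TRINITY_GG_40058_c0_g1 the share went from 1.39% and 0.342% to 82.9% and 81.1%, while TRINITY_GG_107654_c0_g1, TRINITY_GG_68582_c0_g1 and TRINITY_GG_87014_c0_g1 lie near the line throughout.

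A late gene's identifier lay near that of another late gene more often than the identifiers of other genes lay near that of a late gene. How close other genes lay to each other was not measured. The assembly was made from reads mapped to the genome, and each identifier carries the number of a cluster of reads. Another late gene lay within 2 numbers for 26 late genes, 13.0%, while a late gene lay within 2 numbers for 0.914% of the 30953 other genes. Within 5 numbers the shares were 20.5% and 2.01%. The very same number was shared with another late gene by 13 late genes (6.5%), and with a late gene by 0.184% of the other genes. How these numbers relate to position in the genome is not given in the sources used here, and pieces of 1 gene or near-identical copies that share reads could carry neighbouring numbers, so single values within such groups are uncertain.

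The 26 genes formed 11 groups, 4 of 3 genes and 7 of 2. In the group of TRINITY_GG_7306_c0_g1, TRINITY_GG_7306_c1_g1 and TRINITY_GG_7306_c3_g1, with longest transcripts of 234, 438 and 312 bases, the S24–30 means were 209, 357 and 169 CPM and the S21–23 means 0.194, 0.130 and 0.131 CPM. TRINITY_GG_22219_c0_g1, TRINITY_GG_22221_c0_g1 and TRINITY_GG_22221_c1_g1 had 262, 564 and 106 CPM at S24–30, after S21–23 means of 0.0598, 0.287 and 0 CPM. TRINITY_GG_41584_c0_g1 and TRINITY_GG_41586_c0_g1 had 1401 and 1620.2 CPM at S24–30 and, unlike the former groups, were already at 51.0 and 146 CPM at S21–23. The ratios within a group could differ widely, as in TRINITY_GG_56931_c0_g1 and TRINITY_GG_56933_c0_g1 with 995.5 and 180.4, and TRINITY_GG_77551_c0_g1 and TRINITY_GG_77553_c0_g1 differed in their course before S24–30. Among the 270 tested genes that were not late genes but lay within 2 numbers of one, 99 (36.7%) rose from S21–23 to S24–30. The share was 3055 of the 28620 other tested genes outside the late genes (10.7%) and 11.5% of all tested genes, late genes included. Of the 283 genes within 2 numbers of a late gene, tested or not, 57 carried the same number as one. Such genes could be pieces of a late gene or share its reads. The late genes themselves were chosen by a rise over this same step. The shares are therefore a description, and the part of either in the difference was not tested.

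The same ratio rule was applied to the 28 small RNA libraries for comparison. Of 349 mature microRNAs, 16 (4.58%) had an S24–30 mean at least 10 times that of each earlier time-point, beside 1775 of 31153 mRNA genes. A level of 10 CPM, a cut not applied to the mRNA genes, was reached by only 1 of the 16. This was the 3p arm of Dpu-Mir-210. Its 4 S24–30 libraries ranged from 125 to 199 CPM, with a median of 175 CPM and 59 to 141 reads each, and no earlier library exceeded 52.8 CPM. The small RNA libraries held 112244 to 1846449 counts, so that a microRNA at 1 CPM was often below 1 read. The mRNA libraries held 41354642 to 64892281 counts, with 2 libraries per mean against 4 for small RNA. How far these differences affected the numbers past the ratio was not tested.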

How the data were processed

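The 14 mRNA libraries (41354642 to 64892281 counts, median 53153516) carry the results, and the 28 small RNA libraries 1 comparison. The deposited mRNA values are expected counts and TPM per transcript. Per the methods, the authors mapped reads to the Phaw 5.0 genome with STAR (2.7.2b), assembled them with Trinity, mapped transcripts back with gmap, and kept coding transcripts, which salmon (0.14.1) then quantified. For small RNAs, the authors trimmed reads with cutadapt (1.18) and mapped them with Bowtie (1.1.1) to mature microRNAs before salmon. The submitters' processing notes list the same tool versions. Expected counts were deposited without normalization and without pooling of libraries. Reads shared by near-identical sequences were divided by salmon, and the summed S24–30 counts of 65 of the 200 late genes were not whole (tolerance 0.01).

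Counts were summed per gene, the part of the identifier before the isoform number, and rounded for tests. CPM used library totals of the deposited counts. Steps between time-points were tested with edgeR 4.0.16 (R 4.3.3) by quasi-likelihood, with TMM factors, filterByExpr and 1 model of the 7 time-points, so that all libraries shared 1 estimate of the spread. Calls needed a log2 change of 1.5 or more in either direction and a Benjamini-Hochberg adjusted p of 0.001 or less, over 29090 tested genes. The SE is the log2 fold change over the square root of the F statistic. The code was tested on simulated counts. Alternatives were DESeq2 1.42.0, other scalings, filters, thresholds and libraries left out. Replicate libraries differed by more than sampling noise (chi-squared over degrees of freedom 3.59 to 13.0).

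Late genes were named by rule: the 10 highest at S24–30, the 4 highest ratios, the 4 largest rises from S17 to S21–23, the 3 largest changes in each earlier step, the 3 with the least similar S24–30 libraries, those at the rule's limits, the 3 with most expressed isoforms and the 2 longest. Others were chosen after their values were seen. The genes and lists were chosen with earlier results of these data known.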

Additional observations from a re-analysis of the deposited data

Results flagged for a closer look

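At 2 earlier time-points, 1 of the 4 small RNA libraries stood apart from the other 3 for the 3p arm of Dpu-Mir-210, by the gap to the nearest library over the whole range. At S14 the highest library had 4.41 CPM, from 1 read, and the others 0. At S21–23 the highest library had 52.8 CPM, from 27 reads, and the others 0. With the other 3 libraries at 0, reads in 1 library alone meet this criterion whatever their number. The S24–30 libraries, at 125 to 199 CPM, all lay above both values.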

How the results depend on the processing

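The number of genes past the ratio of 10 was 1775 for gene sums and 2735 for single transcripts, and it stayed between 1194 and 2498 with TMM scaling, TPM, a ratio of 5 or 20, or single libraries in place of means. Without either S24–30 replicate it was 1752 to 1762. TMM scaling kept 187 of the 200 late genes and TPM kept 121 among its own 200 most abundant. With an adjusted p of at most 0.05 and no fold threshold, edgeR called 129 late genes risen and 21 fallen from S17 to S21–23 (64.5% and 10.5%, against 12.6% and 14.7% of all tested genes), 84 and 28 from S7–11 to S17 (42.0% and 14.0%, against 17.0% and 35.3%), and 78 and 47 from S1–4 to S7–11 (39.0% and 23.5%, against 40.96% and 39.5%). Leaving out 1 replicate gave 62 to 67 risen and 2 to 3 fallen genes from S17 to S21–23, 35 to 42 and 7 to 10 from S7–11 to S17, and 46 to 49 and 24 to 26 from S1–4 to S7–11. With 1 library left at a time-point, it was assumed to vary like the others. DESeq2 called 72 and 2, 59 and 7, and 54 and 29 over these steps. Deviations of same-numbered libraries correlated at 0.03, 0.0005 and 0.003 in the time-points of the 3 tested steps and at 0.27 between S21–23 and S24–30, and the labels give the numbers no shared source, so the numbers were not shown to pair the samples of the tested steps. With the replicate number as a block the counts were 71 and 2, 43 and 9, and 51 and 25. The shares of all tested genes under DESeq2, the block and the left-out replicates are not given here. The counts under these settings therefore allow no comparison with all tested genes. The S24–30 share of the late genes was 11.1% in TPM and 12.7% for all genes past the ratio, and 10.7% to 10.8% without either replicate. In every alternative, more late genes were called risen than fallen at each tested step. Many had too few earlier counts for a call of a fall, so this direction is a description only. The order against all tested genes changed in places at the looser threshold. Rises from S1–4 to S7–11 were then less frequent in late genes (39.0% against 40.96%), but more frequent with the main thresholds (26.5% against 23.8%). For falls from S17 to S21–23 the shares were 10.5% against 14.7%, and 1.0% against 0.945% with the main thresholds. Low counts limited the tests at the earlier time-points, where 10 to 66 late genes had fewer than 3 counts over both libraries. The earlier mRNA libraries held 41354642 to 64892281 counts, and those of S24–30 held 54499912 and 49568237.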
